A study of Mus musculus with 14 samples.

Results

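The genes described here lie beside Lpar2 on mouse chromosome 8. They were chosen by position and by a minimum of counts: every gene of the deposited table with its midpoint between 60 and 80 Mb (mm10), and with 10 or more counts in at least 7 mice. The window held 202 genes, of which 154 passed the count rule. Leaving out Lpar2 itself, 10 further genes by name and all genes starting with Kcn removed 12 of these, and 142 of the 24421 genes in the table remained. All 142 also passed the filter for the test, 132 of them had at least 10 counts in every mouse, and 138 are listed by RefSeq as protein coding.

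RNA of hippocampi was sequenced from 7 mice labelled LPAR2-/- and 7 wild-type (WT) mice, all of them naive and untreated males of the strain given as 129.C57Bl6. LPAR2 is a G protein-coupled receptor for lysophosphatidic acids, and the study asked how its loss alters the hippocampal transcriptome. The labels put the age at 10 to 12 weeks, while the description of the series speaks of middle-aged to aged animals, so the age is not settled, and the tissue is named as hippocampus in the labels and as dentate gyrus in the study's results. The knockout allele lacks a part of exon 2 of Lpar2 in all cells. Knockout and WT mice were not littermates but came from separate breeding lines, and the WT line carried both C57BL/6 and 129/SvJ genomes. The deletion, the colony and the strain origin of the chromosome around Lpar2 therefore cannot be told apart in these data.

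Genes that lie close together on a chromosome are inherited together. A targeted allele made in cells of one mouse strain and kept on a mixed background therefore carries a flanking stretch of the donor chromosome, which is known as the passenger or flanking gene problem. Neighbouring genes may also share promoters, enhancers or chromatin domains. Expression of the genes around a deleted gene is thus read separately from that of the rest of the genome.

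The counts summed to between 15434620 and 23258949 per mouse. Lpar2 (chr8:69822565-69831102) had 144 to 234 counts in the 7 mice labelled LPAR2-/- and 27 to 66 counts in the 7 WT mice. Its level was 9.55 ± 1.41 against 2.36 ± 0.676 CPM, that is counts scaled to the size of the library (mean ± SD, n = 7 each), a log2 fold change of 2.01 (SE 0.157, adjusted p = 8.22e-07). Lpar2 was thus higher in the mice labelled LPAR2-/-. The counts are summed over all exons and do not show the deleted part of exon 2 by itself, so they cannot check the genotype, and the genotypes are used as labelled. Of 13 lists of markers for cell types and regions, the striatal list alone differed in its summed level between the genotypes (4 of 4 markers measured in every mouse, adjusted p = 0.0455 over the lists, exact permutation test). None of the 4 markers differed by itself at an adjusted p under 0.05. The sums overlapped, with 40.7 to 48.2 CPM in mice labelled LPAR2-/- and 34.1 to 42.0 CPM in WT mice. Some libraries labelled LPAR2-/- stood apart, with up to 3294 CPM of oligodendrocyte markers against at most 1702 CPM in WT mice, and up to 276 CPM of choroid plexus markers against at most 32.2 CPM. In whole tissue, fewer cells of a type and less RNA per cell cannot be told apart.

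Of the 142 genes, 37 differed between the genotypes at an adjusted p under 0.05 (26.1%), against 6.77% of all 14897 genes tested. Among them, 17 were higher in the mice labelled LPAR2-/- (12.0%, against 3.32% of all genes) and 20 were lower (14.1%, against 3.46%). In 24 genes (16.9%) every mouse of one genotype lay outside the range of the other genotype, 12 of them higher and 12 lower, against 1.77% of all genes. All of these 24 were among the 37. With each mouse left out in turn, 32 to 39 genes passed, and of the 37 genes Myo9b, Csgalnact1, Babam1, Pik3r2 and B3gnt3 did not pass in some of these fits. The changes went both ways, and the median log2 fold change over the 142 genes was −0.009, beside 0.003 over all genes tested. The median absolute log2 fold change was 0.15, beside 0.09 over all genes. An unadjusted p under 0.05 was found for 61 of the 142 genes (43.0%, against 22.4% of all genes). Of the 20 genes with the smallest p in the whole table, 7 were among these 142. The log2 fold changes of the 105 genes that did not pass ranged from −0.59 for Klf2 (adjusted p = 0.0951) to 0.39 for Nat2 (adjusted p = 0.336).

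**Figure D1:**
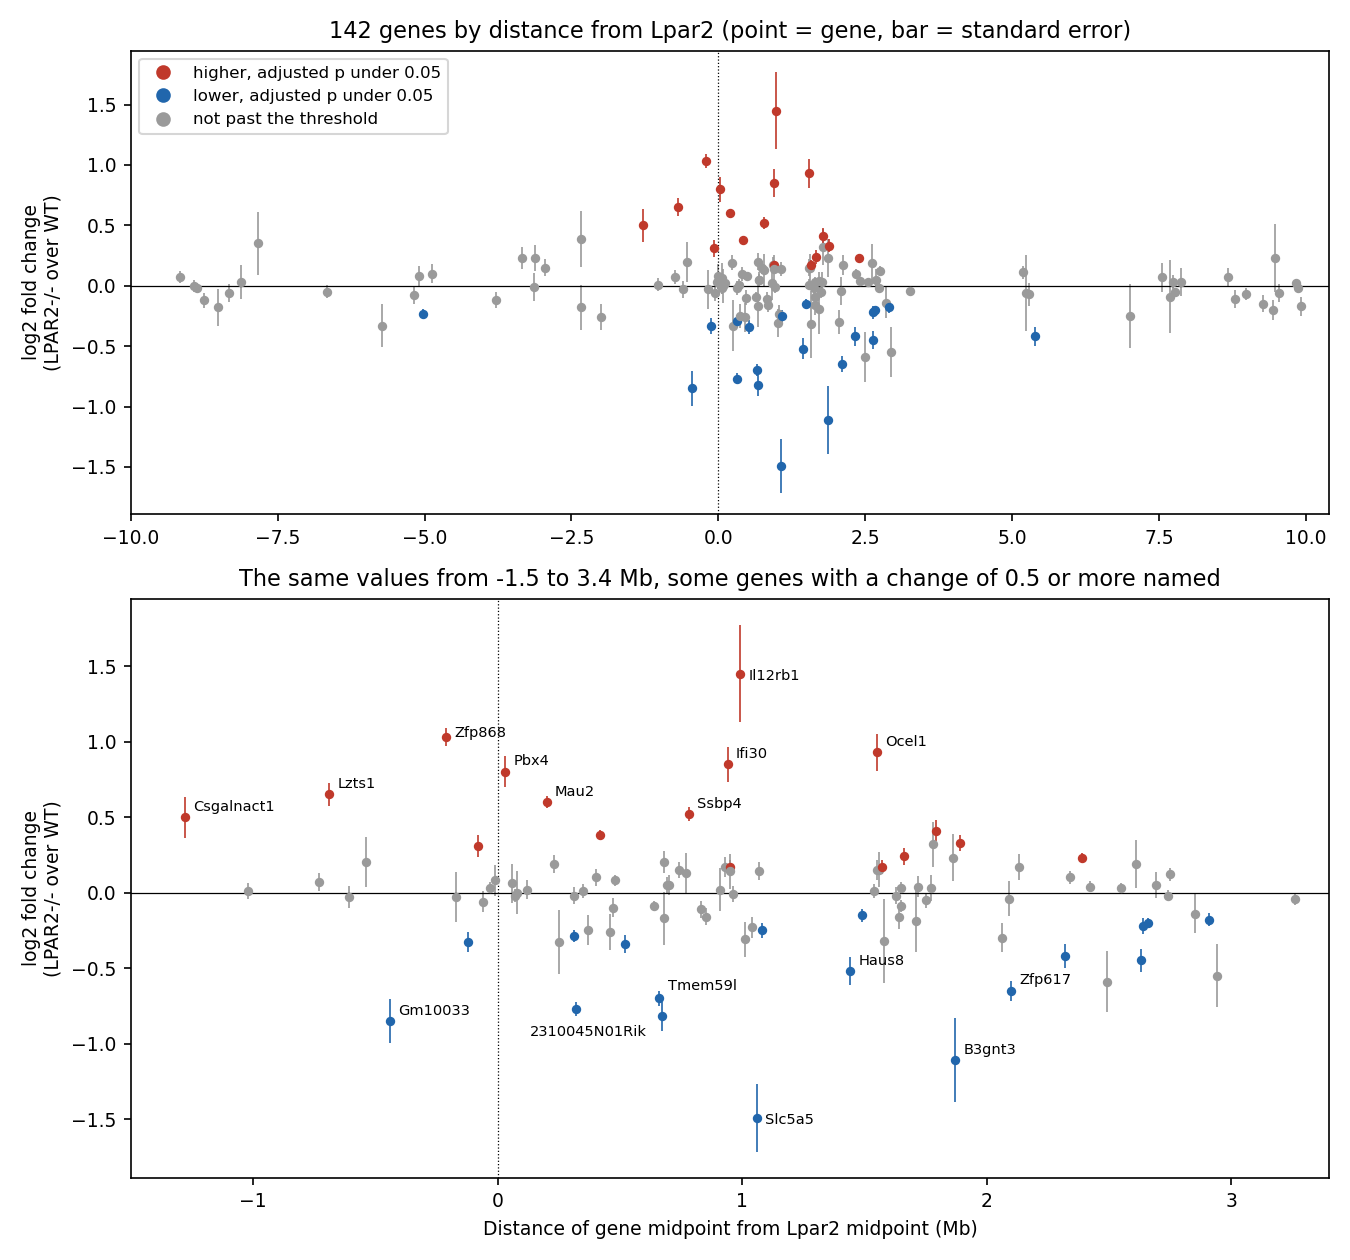
Log2 fold change (mice labelled LPAR2-/- over WT, 7 mice each) of the 142 genes against the distance of the gene's midpoint from that of Lpar2 in Mb, over the whole window (top) and from −1.5 to 3.4 Mb (bottom). Each point is a gene, bars are standard errors, and red and blue mark the 17 higher and 20 lower genes past the threshold. The coloured points stand close to Lpar2 on both sides, and 2 lie apart at −5.03 and 5.39 Mb.

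The genes past the threshold were not spread evenly over the window. From Csgalnact1, 1.28 Mb before Lpar2, to Sin3b, 2.91 Mb after it, 35 of 98 genes passed (35.7%), 17 higher and 18 lower. Outside this stretch, 2 of 44 genes passed (4.55%), namely Klhl2 and Rasd2. The ends of the stretch were set by the genes that passed, after their values were seen, so these shares describe the data and are not tested. By distance classes, 17 of 50 genes within 1 Mb passed (34.0%), 11 of 30 genes at 1 to 2 Mb (36.7%), 7 of 29 genes at 2 to 5 Mb (24.1%) and 2 of 33 genes at 5 to 10 Mb (6.06%). In the furthest class the share was thus near that of all genes. The median WT level was much the same in these classes, with 26.7, 21.6, 21.7 and 26.1 CPM. On the side before Lpar2, 6 of 15 genes within 2 Mb passed and 1 of 21 genes further away. After Lpar2 the share was 31.6%, 37.0% and 33.3% in the classes up to 5 Mb, and 1 of 20 genes beyond. Only 21 genes lie at 2 to 5 Mb after Lpar2, and no gene of the set lies between 3.26 and 5.19 Mb, so the end of the stretch on this side is not resolved.

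**Figure D2:**
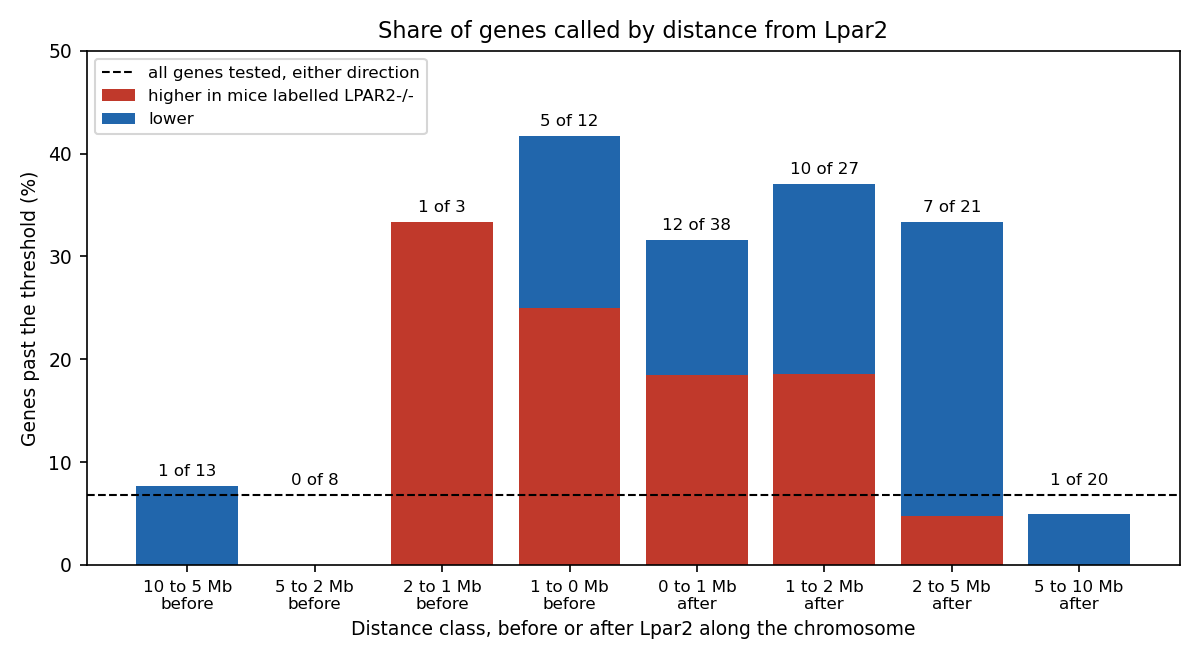
Share of genes past the threshold (%, bars from 0) in classes of distance before and after Lpar2 along the chromosome, divided into genes higher (red) and lower (blue) in mice labelled LPAR2-/-, with the number passed of all genes above each bar. The dashed line is the share of all genes tested, 6.77%, which is exceeded in each class from 2 Mb before to 5 Mb after Lpar2.

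Over the whole window, distance and size of the change were only weakly related. Spearman's correlation between the distance and the absolute log2 fold change was −0.17 over the 142 genes, −0.25 over the 36 genes before and −0.14 over the 106 genes after Lpar2. These are descriptions across genes of the same 14 libraries. Of the 78 genes on the plus strand 17 passed, and of the 64 on the minus strand 20. Neighbouring genes of the set were both past the threshold in 10 cases, with gaps of up to 334 kb. In 7 of these cases the partners changed in the same direction. Taken along the chromosome, with other genes in between or not, the genes past the threshold formed 36 successive pairs, of which 20 had the same direction. How many such cases the order of the genes alone would give was not tested.

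The genes past the threshold were not confined to the chosen window. In the adjoining 10 Mb of chromosome 8 the share was 11.8% of 17 tested genes before the window (50 to 60 Mb) and 25.3% of 91 genes after it (80 to 90 Mb). Shares above that of all genes tested also occurred far from Lpar2 on both sides, with 17.2% of 58 genes at 20 to 30 Mb, 25.0% of 32 genes at 30 to 40 Mb and 21.1% of 95 genes from 120 Mb on. At 100 to 110 Mb, 0 of 88 genes passed in edgeR, with 15 at an unadjusted p under 0.05 and 2 past the threshold in DESeq2. The bins at 0 to 10, 10 to 20, 40 to 50, 90 to 100 and 110 to 120 Mb had between 2.9% and 11.4%. On chromosome 8 outside the window the share was 13.1% (81 of 620 genes), and on the other chromosomes 6.28% (887 of 14122 genes).

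The 5 genes on either side of Lpar2 did not change as a block, and 3 of these 10 passed. The nearest gene before Lpar2 is Gmip (chr8:69808687-69821870), a GTPase-activating protein, which ends 694 bases before Lpar2 starts. Its levels were 16.3 to 18.9 CPM (median 17.3) in mice labelled LPAR2-/- and 10.7 to 19.7 CPM (median 17.3) in WT mice (log2 fold change 0.08, SE 0.103, adjusted p = 0.686). The nearest gene after Lpar2 is Pbx4 (chr8:69832704-69872292), a homeodomain cofactor of Hox proteins, which starts on the same strand 1601 bases after the end of Lpar2. Pbx4 was measured at 7.34 to 10.6 CPM (median 8.49) and 3.7 to 5.83 CPM (median 5.02), so that every mouse labelled LPAR2-/- exceeded every WT mouse (log2 fold change 0.80, SE 0.104, adjusted p = 0.000336). Next before Gmip lie Atp13a1, an ATPase of the endoplasmic reticulum (0.03, adjusted p = 0.711), and Zfp866 (−0.06, adjusted p = 0.643), followed by Zfp963 and Zfp869, both past the threshold. Next after Pbx4 lie the cartilage protein gene Cilp2 (0.06, adjusted p = 0.837), the complex I subunit Ndufa13 (−0.02, adjusted p = 0.796), the testis-specific kinase Tssk6 (0.00, adjusted p = 1) and Gatad2a, a subunit of the NuRD chromatin remodelling complex (0.02, adjusted p = 0.918). Pbx4 was thus the only gene of the 5 after Lpar2 that passed.

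**Figure D3:**
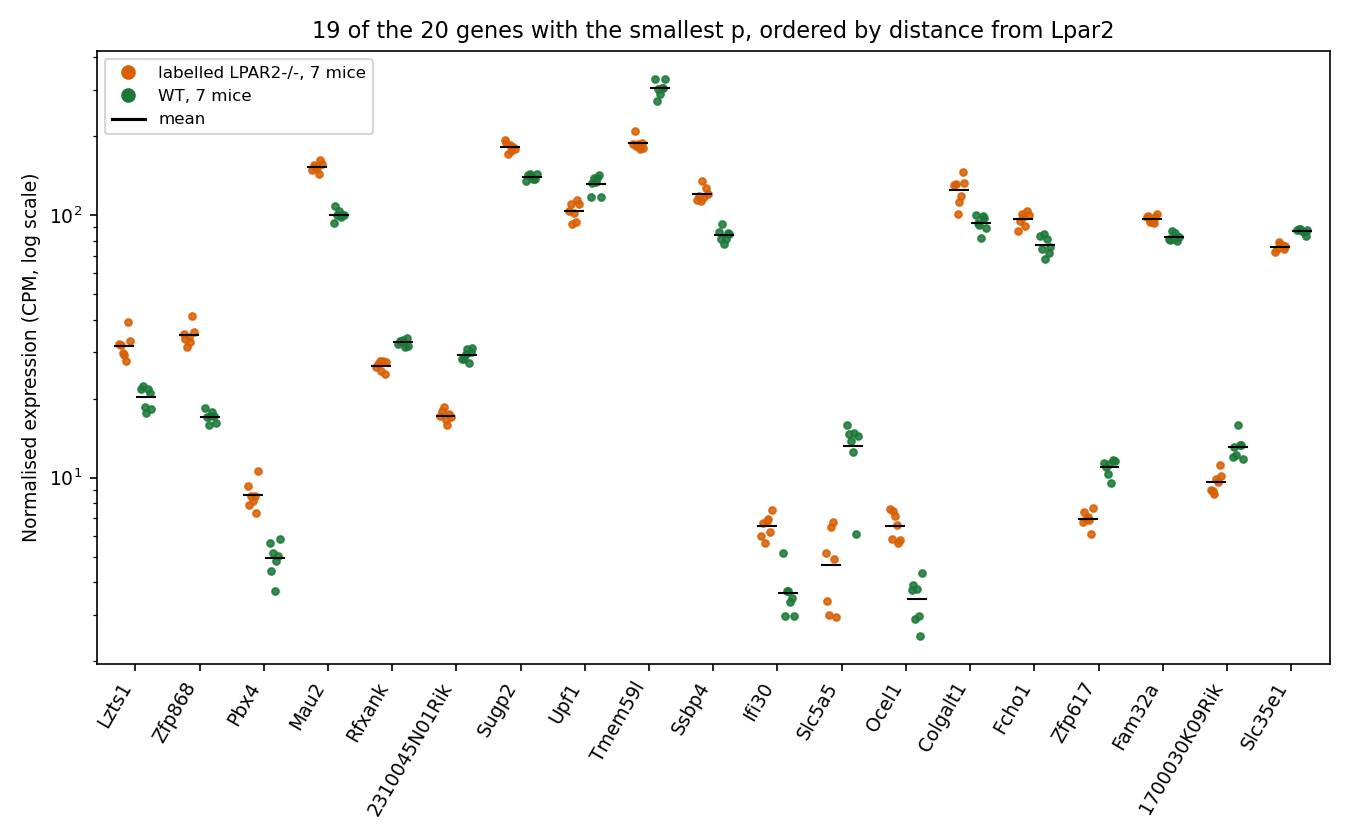
Normalised expression per mouse (CPM, logarithmic axis) of 19 of the 20 genes of the window with the smallest p, ordered by distance from Lpar2. Orange points are the 7 mice labelled LPAR2-/-, green points the 7 WT mice and black lines the means. The groups are apart for all of these genes but Slc5a5, for which a single WT mouse lies among the mice labelled LPAR2-/-.

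The smallest p of the set belonged to a zinc finger gene. Proteins with a KRAB domain and zinc fingers bind DNA and silence mainly transposable elements, and their genes lie in clusters of similar copies, 1 of which stands next to Lpar2. Of the 11 zinc finger genes, 4 passed, 2 higher and 2 lower. Zfp868 (chr8:69610654-69625548, 0.21 Mb before Lpar2) had 31.3 to 41.4 CPM (median 34.4) in mice labelled LPAR2-/- and 15.8 to 18.4 CPM (median 17.2) in WT mice. The lowest mouse labelled LPAR2-/- was well above the highest WT mouse (log2 fold change 1.03, SE 0.0587, adjusted p = 1.3e-08). Zfp617 (chr8:71922825-71934630, 2.10 Mb after Lpar2) showed the reverse, with 6.09 to 7.68 CPM (median 6.93) against 9.53 to 11.7 CPM (median 11.3), again without overlap (−0.65, SE 0.0674, adjusted p = 2.83e-05). Zfp963 (chr8:69741639-69749962, −0.08 Mb) was higher (0.31, adjusted p = 0.0171), and its neighbour Zfp869 (chr8:69705137-69716902, −0.12 Mb) was lower (−0.33, adjusted p = 0.00758). Reads matching several places were not counted, and of the 50-base words in the transcripts of Zfp963 and Zfp617, 39.4% and 41.5% also occur in transcripts of other genes, so that these counts cover a part of each gene and are uncertain. For Zfp869 the figure was 9.34%, mostly shared with Zfp868. The zinc finger genes Zfp930, Zfp964, Zfp866, Zfp709, Zfp882, Zfp961 and Zfp827 did not pass, with log2 fold changes from −0.30 to 0.17.

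Genes of transcription and chromatin were represented by 19 members, of which 6 passed, 4 higher and 2 lower. Beside Pbx4, the largest differences were seen for Mau2 (chr8:70016123-70042734, 0.20 Mb), the partner of Nipbl in loading cohesin onto DNA. Mau2 had 144 to 162 CPM (median 152) in mice labelled LPAR2-/- and 93 to 108 CPM (median 100) in WT mice, with a wide gap between the groups (log2 fold change 0.60, SE 0.0368, adjusted p = 2.62e-08). Ssbp4 (chr8:70597490-70608314, 0.78 Mb), of a family that binds single-stranded DNA and LIM-domain cofactors, rose from 77.6 to 92.5 CPM (median 84.8) in WT mice to 113 to 135 CPM (median 118), also without overlap (0.52, SE 0.0468, adjusted p = 5.35e-06). Rfxank (chr8:70130806-70139197, 0.31 Mb), a subunit of the RFX complex at MHC class II promoters, had 24.7 to 27.8 CPM (median 27.1) against 31.4 to 33.9 CPM (median 33) in WT mice. All mice labelled LPAR2-/- were below all WT mice (−0.29, SE 0.039, adjusted p = 0.000361). Babam1 (chr8:71396855-71404772, 1.57 Mb), of the BRCA1-A complex in DNA repair, differed by 0.17 (adjusted p = 0.0336), and Sin3b (chr8:72723270-72758203, 2.91 Mb), a scaffold of histone deacetylases, by −0.18 (adjusted p = 0.0193), both with overlapping groups. Not past the threshold were 2700029M09Rik, Nek1, Ints10, Gatad2a, Nr2c2ap, Ell, Nr2f6, Klf2, Med26, Hmgxb4, Mcm5, Prmt10 and Smad1, between −0.59 and 0.15. Nr2c2ap lies on the opposite strand and shares 905 of the 3682 exonic bases of Rfxank (24.6%). Counting was set to the reverse strand, but the sources differ on the library kit and so on whether strand was kept. If it was not, reads of the shared part cannot be assigned to either gene, and the value of Rfxank is uncertain. The same holds for smaller parts of Sugp2 (4.54% of exonic bases), Upf1 (1.54%), Cherp (1.55%) and 1700030K09Rik (2.43%). Nr2c2ap itself differed by −0.02 (adjusted p = 0.847).

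Membrane traffic, transport and the cytoskeleton formed the largest group with 29 genes, of which 10 passed, 3 higher and 7 lower. The smallest p here was that of 2310045N01Rik (Borcs8 in RefSeq, chr8:70139499-70148634, 0.32 Mb), a subunit of the BORC complex that couples lysosomes to kinesin. Its level was 15.9 to 18.5 CPM (median 17.2) in mice labelled LPAR2-/- and 27.4 to 31.1 CPM (median 29.5) in WT mice, with no overlap (log2 fold change −0.77, SE 0.046, adjusted p = 2.37e-08). A read-through transcript of this gene with Mef2b shares 274 of its 2783 exonic bases on the same strand, and reads in that part were not counted, so the values cover the rest of the gene. Tmem59l (chr8:70483867-70487358, 0.66 Mb), a membrane protein of neurons, had 178 to 209 CPM (median 187) against 271 to 331 CPM (median 304) in WT mice. These groups were widely separated (−0.70, SE 0.0486, adjusted p = 1.58e-07). Ocel1 (chr8:71371298-71373689, 1.55 Mb), which carries an occludin-type domain, was the most increased of the group, with 5.61 to 7.59 CPM (median 6.58) against 2.48 to 4.32 CPM (median 3.73) and no overlap (0.93, SE 0.122, adjusted p = 0.000344).

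Fcho1 (chr8:71708387-71725681, 1.89 Mb), which starts clathrin-coated pits, was also higher, with 86.7 to 104 CPM (median 97.9) against 68.1 to 84.8 CPM (median 75.4, log2 fold change 0.33, SE 0.0538, adjusted p = 0.00224). Fam32a (chr8:72219730-72223775, 2.39 Mb) had 93.2 to 101 CPM (median 97.9) against 79.9 to 87.1 CPM (median 81.1, 0.23, SE 0.0319, adjusted p = 0.0005). The place of Fam32a in this group comes from the role list alone and does not rest on these data. Slc35e1 (chr8:72477995-72492614, 2.66 Mb), of a family of nucleotide sugar transporters, was lower, with 72.5 to 79.1 CPM (median 76.5) against 82.9 to 88.6 CPM (median 87.5, −0.20, SE 0.0301, adjusted p = 0.00133). The groups of Fcho1, Fam32a and Slc35e1 did not overlap. Also lower were the tropomyosin gene Tpm4 (chr8:72135292-72153129, 2.32 Mb, −0.42, adjusted p = 0.00441), Haus8 (chr8:71251124-71272590, 1.44 Mb, −0.52, adjusted p = 0.00293), a subunit of the augmin complex that nucleates microtubules, Map1s (chr8:70905974-70917529, 1.08 Mb, −0.25, adjusted p = 0.00932), a microtubule-associated protein, and Myo9b (chr8:71272714-71360712, 1.49 Mb, −0.15, adjusted p = 0.0492), a myosin with a GTPase-activating domain. Of the 50-base words of Tpm4, 11.7% also occur in transcripts of other genes, so its count is uncertain. Clcn3, Palld, Tmem192, Atp6v1b2, Atp13a1, Tmem161a, Cope, Kxd1, Use1, Ushbp1, Ano8, Rab8a, Ap1m1, Eps15l1, Smim7, Tmem38a, Tom1, Tmem184c and Slc10a7 did not pass, with a narrow range from −0.11 to 0.15. Kxd1 belongs to the same BORC complex as Borcs8 and lies at 0.69 Mb. It was measured at 23.7 to 26.5 CPM (median 25.2) against 21.2 to 26.1 CPM (median 23.8, 0.05, adjusted p = 0.625).

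**Figure D4:**
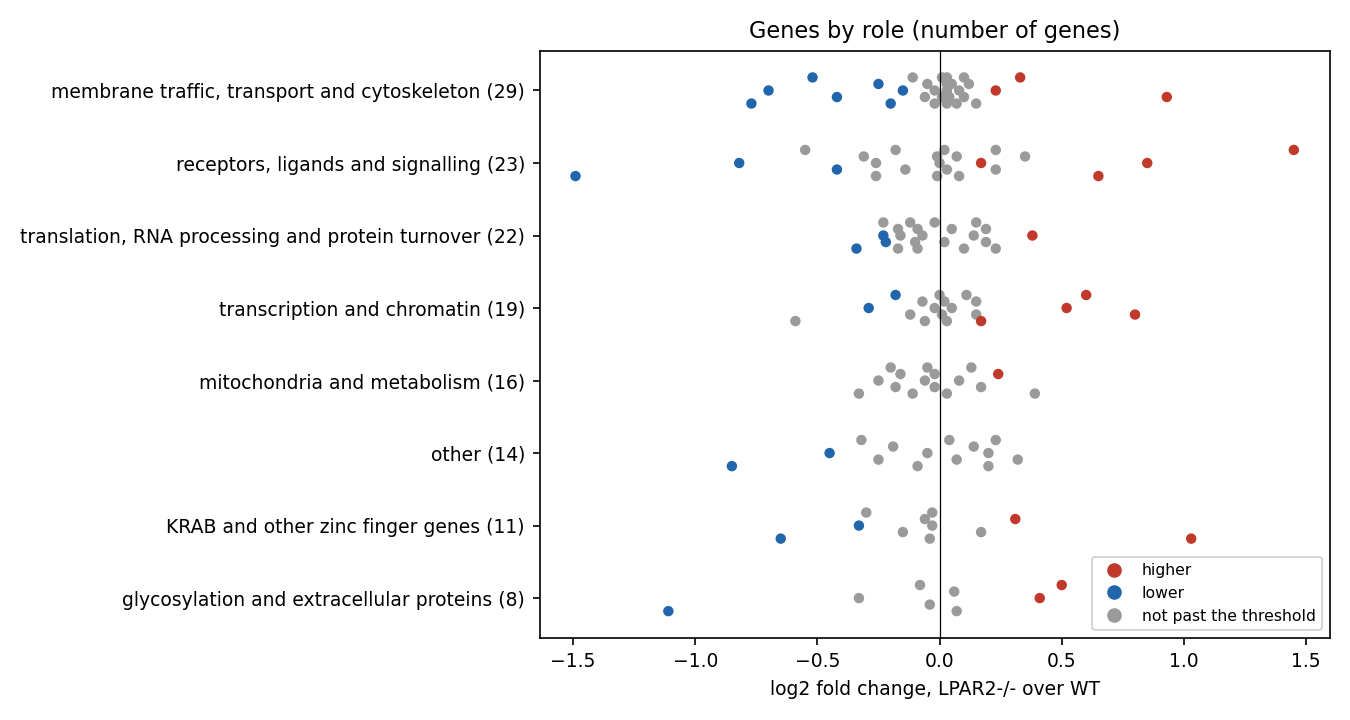
Log2 fold change (mice labelled LPAR2-/- over WT) of the 142 genes by role, with the number of genes in brackets. Each point is a gene, red and blue mark genes past the threshold and grey points the 105 others, which keep between −0.59 and 0.39. Every role holds coloured points, with a single 1 among the 16 genes of mitochondria and metabolism.

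Among the 23 genes of receptors, ligands and signalling, a list that also holds several immune and transporter genes, 7 passed, 4 higher and 3 lower. This list held the largest fitted increase and decrease among the genes that passed, of which the increase was not the largest in every setting. Slc5a5 (chr8:70882889-70892757, 1.06 Mb), the sodium iodide symporter of the thyroid, had 2.94 to 6.79 CPM (median 4.9) in mice labelled LPAR2-/- and 6.08 to 15.8 CPM (median 14.4) in WT mice. The 6 other WT mice were at 12.5 CPM or above, and WT mouse 6 alone reached into the range of the mice labelled LPAR2-/- (log2 fold change −1.49, SE 0.225, adjusted p = 0.00173).

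Il12rb1 (chr8:70808449-70821423, 0.99 Mb), the shared receptor subunit of interleukins 12 and 23, showed the largest fitted increase but was close to the limit of detection, with 9 to 35 counts in mice labelled LPAR2-/- and 2 to 10 counts in WT mice. This corresponds to 0.537 to 1.52 CPM (median 0.82) against 0.102 to 0.583 CPM (median 0.319), and the groups overlapped (log2 fold change 1.45, SE 0.321, adjusted p = 0.0142). With limma on the authors' values and a pseudocount of 1, the log2 fold change of Il12rb1 was 0.23, smaller than that of Zfp868 (0.93). Ifi30 (chr8:70762773-70766663, 0.94 Mb), an interferon-inducible thiol reductase of lysosomes, was measured at 5.63 to 7.49 CPM (median 6.71) against 2.96 to 5.15 CPM (median 3.47) without overlap (0.85, SE 0.117, adjusted p = 0.0005). Both genes are known from immune cells. The summed level of 3 microglial markers was 180 to 234 CPM (median 218) against 178 to 211 CPM (median 188, p = 0.0676, adjusted p = 0.315 over 13 lists, exact permutation test), and its part in these results was not tested.

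Lzts1 (chr8:69135503-69140953, −0.69 Mb), a leucine zipper protein of the postsynaptic density, rose to 27.7 to 39 CPM (median 31.9) from 17.6 to 22.4 CPM (median 21) in WT mice, again with groups apart (log2 fold change 0.65, SE 0.0761, adjusted p = 0.000101). Pik3r2 (chr8:70768181-70776712, 0.95 Mb), a regulatory subunit of phosphoinositide 3-kinase, differed by 0.17 with overlapping groups (adjusted p = 0.0291). Rasd2 (chr8:75213944-75224113, 5.39 Mb), a small G protein with high expression in the striatum, had 65.5 to 83.7 CPM (median 73.3) against 79.8 to 119 CPM (median 105, −0.42, SE 0.0826, adjusted p = 0.0082). The sum of the 4 striatal markers was on the other side, with 40.7 to 48.2 CPM against 34.1 to 42.0 CPM in WT mice, and its part in the result for Rasd2 was not tested. The remaining genes of the list, Sh3rf1, Ddx60, Npy5r, Npy1r, Psd3, Gmip, Tssk6, Homer3, Pde4c, Mast3, Arrdc2, Jak3, Nwd1, F2rl3, Arhgap10 and Ednra, ranged from −0.55 to 0.35. The receptors of neuropeptide Y, Npy1r and Npy5r, were thus not among the genes that passed (0.23 and −0.01, adjusted p = 0.226 and 0.974).

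Of the 22 genes of translation, RNA processing and protein turnover, 4 passed, 1 higher and 3 lower. Sugp2 (chr8:70234226-70263105, 0.42 Mb), a G-patch protein of the splicing machinery, had 171 to 193 CPM (median 181) in mice labelled LPAR2-/- and 135 to 144 CPM (median 139) in WT mice, with no overlap (log2 fold change 0.38, SE 0.0333, adjusted p = 3.31e-06). Upf1 (chr8:70331522-70353273, 0.52 Mb), the helicase of nonsense-mediated mRNA decay, was at 92.4 to 114 CPM (median 104) against 117 to 142 CPM (median 134), and the groups were apart by a small gap (−0.34, SE 0.0576, adjusted p = 0.00281). Cherp (chr8:72460483-72475233, 2.64 Mb), which takes part in splicing and in calcium release from the endoplasmic reticulum, differed by −0.22 (adjusted p = 0.0226). Klhl2 (chr8:64739675-64849924), an adaptor of cullin 3 ubiquitin ligases, lies at −5.03 Mb, apart from the other genes that passed. It had 406 to 457 CPM (median 432) against 472 to 537 CPM (median 497) without overlap (−0.23, SE 0.0395, adjusted p = 0.0031). March1, Tma16, Naf1, Sugp1, Armc6, Ddx49, Klhl26, Fkbp8, Lsm4, Ccdc124, Dda1, Calr3, Lsm6, Otud4, Abce1 and Anapc10 were among those that did not pass, between −0.23 and 0.23.

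Glycosylation and extracellular proteins were represented by 8 genes, of which 3 passed. Colgalt1 (chr8:71611024-71624911, 1.79 Mb), which adds galactose to collagens, had 101 to 146 CPM (median 130) against 82.1 to 100 CPM (median 93.6), with the lowest mouse labelled LPAR2-/- just above the highest WT mouse (log2 fold change 0.41, SE 0.0691, adjusted p = 0.00256). Csgalnact1 (chr8:68356781-68735146, −1.28 Mb), which starts chondroitin sulfate chains, had 27.9 to 44.8 CPM (median 33.1) against 17.6 to 29.4 CPM (median 26.7, 0.50, SE 0.136, adjusted p = 0.0378). B3gnt3 (chr8:71691720-71701800, 1.87 Mb), an N-acetylglucosaminyltransferase, had only 7 to 19 counts in mice labelled LPAR2-/- and 14 to 44 counts in WT mice, and the groups overlapped (−1.11, SE 0.28, adjusted p = 0.0257). With limma on the authors' values and a pseudocount of 1 it was −0.33. Mfap3l, Tll1, Cpe, Cilp2 and Large did not pass, with values from −0.33 to 0.07.

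Of the 16 genes of mitochondria and metabolism 1 passed, a share near that of all genes tested, and a difference from the other groups was not tested. Gtpbp3 (chr8:71488103-71493400, 1.66 Mb), which modifies mitochondrial tRNAs, passed with 0.24 and overlapping groups (adjusted p = 0.0219). Cbr4, Msmo1, Nat1, Nat2, Ndufa13, Tm6sf2, Slc25a42, Isyna1, Pgpep1, Mpv17l2, Abhd8, Mrpl34, Slc27a1, Pgls and Mmaa did not, between −0.33 and 0.39. Of the 14 genes in no list, 2 passed and both were lower. Gm10033 (chr8:69371025-69395544, −0.44 Mb) is a predicted gene with 21 to 39 counts in mice labelled LPAR2-/- and 39 to 72 counts in WT mice, which gave 1.08 to 1.95 CPM against 2.27 to 3.55 CPM and no overlap (−0.85, SE 0.148, adjusted p = 0.00299, and −0.385 with limma and a pseudocount of 1). 1700030K09Rik (chr8:72443880-72460541, 2.63 Mb) had 8.66 to 11.2 CPM (median 9.58) against 11.8 to 15.8 CPM (median 13.1), also without overlap (−0.45, SE 0.0758, adjusted p = 0.00273). It shares 59 exonic bases with Cherp on the opposite strand, and both were lower. Spock3, D130040H23Rik, 2810428I15Rik, 2010320M18Rik, Ankle1, Bst2, Mvb12a, Fam129c, Gm10649, 0610038B21Rik, Rbmxl1 and Gm4890 ranged from −0.32 to 0.32.

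Genes that start head to head on opposite strands may share a promoter. The set held 12 such pairs with start sites within 1000 bases of each other in the table. Both genes passed in 2 pairs, 1 gene in 4 pairs and none in 6 pairs. One of the pairs with both past the threshold depends on Myo9b, which was lost in 11 of 14 fits with a mouse left out (highest adjusted p = 0.106, without WT mouse 2) and in 6 of 8 other settings. Rfxank and 2310045N01Rik, whose starts are 302 bases apart, were both lower (−0.29 and −0.77), and so were Haus8 and Myo9b at 124 bases (−0.52 and −0.15). In 3 of the 4 pairs with 1 gene past the threshold, the partner had the same sign. Over all 12 pairs, the partners had the same sign in 6. Mau2 was higher (0.60), and Sugp1, which starts 79 bases away, had 58.8 to 68.2 CPM (median 63.6) against 49.5 to 67.7 CPM (median 53, log2 fold change 0.19, SE 0.0609, adjusted p = 0.0767). Sugp1 passed without WT mouse 7. Sugp2 was higher (0.38), and its partner Armc6, with overlapping first exons, differed by 0.10 (adjusted p = 0.346). Pik3r2 (0.17) stood beside 2010320M18Rik (0.14, adjusted p = 0.508), and 1700030K09Rik (−0.45) beside Calr3 (0.19, adjusted p = 0.5). A difference between the partners of a pair was not tested.

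**Figure D5:**
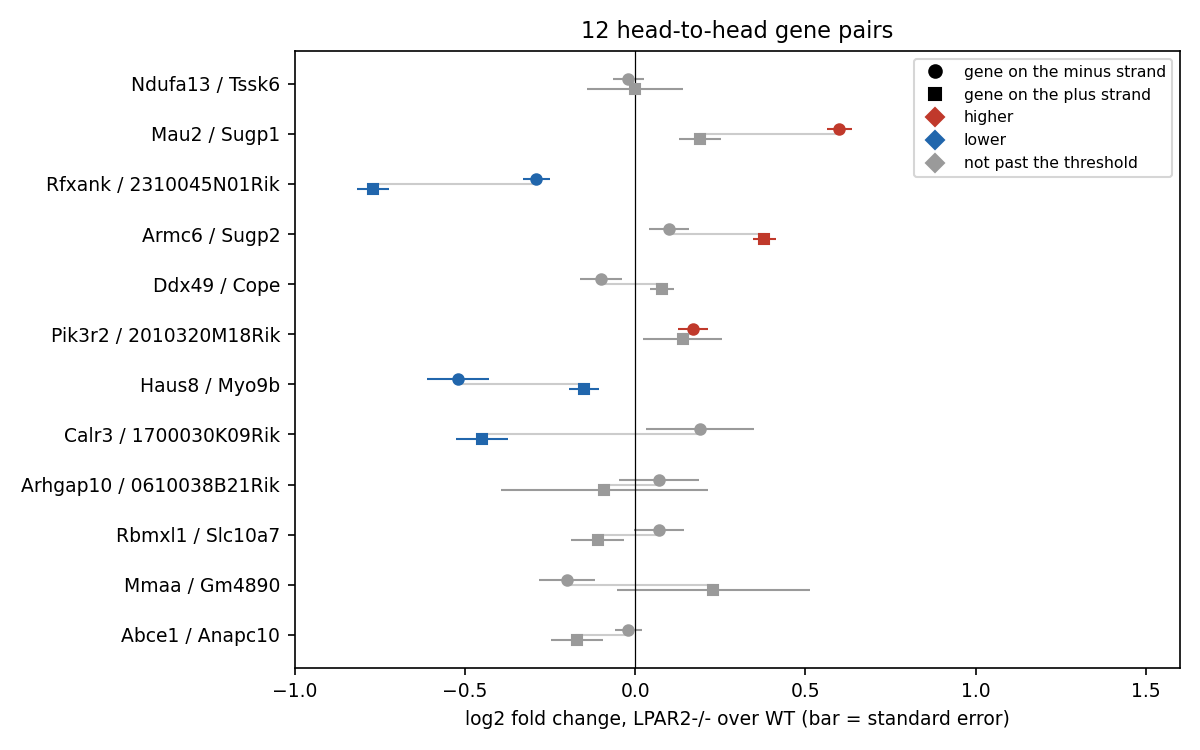
Log2 fold change (mice labelled LPAR2-/- over WT, bars are standard errors) of both genes in the 12 head-to-head pairs, ordered by position. Circles are genes on the minus strand and squares genes on the plus strand, and red, blue and grey mark higher, lower and not past the threshold. Both partners are blue for Rfxank with 2310045N01Rik and for Haus8 with Myo9b, of which Myo9b passed in 3 of 14 fits with a mouse left out.

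The shared start regions of the pairs in which both genes passed, although Myo9b passed narrowly, and of Mau2 and Sugp1, where 1 gene passed, are shown as 300 bases of RefSeq (GRCm38.p6, the assembly behind mm10), from 250 before to 50 after the RefSeq start of the gene on the plus strand. The first is chr8:70139249-70139548, the second chr8:71272464-71272763 and the third chr8:70042537-70042836, all on the plus strand, 5′ to 3′. Capitals mark matches, on either strand, to 5 short motifs: CCGGAAG (core of ETS factor sites), GGGCGG (the GC box), CCAAT (the CCAAT box), GCATGCGC (core of NRF1 sites) and TATAAA (the TATA box).
Rfxank and 2310045N01Rik: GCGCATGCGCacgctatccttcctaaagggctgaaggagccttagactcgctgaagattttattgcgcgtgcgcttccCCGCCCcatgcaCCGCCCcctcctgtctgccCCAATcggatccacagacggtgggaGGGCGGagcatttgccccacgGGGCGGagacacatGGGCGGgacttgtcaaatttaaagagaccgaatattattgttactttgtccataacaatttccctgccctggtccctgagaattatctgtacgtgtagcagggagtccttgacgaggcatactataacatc
Haus8 and Myo9b: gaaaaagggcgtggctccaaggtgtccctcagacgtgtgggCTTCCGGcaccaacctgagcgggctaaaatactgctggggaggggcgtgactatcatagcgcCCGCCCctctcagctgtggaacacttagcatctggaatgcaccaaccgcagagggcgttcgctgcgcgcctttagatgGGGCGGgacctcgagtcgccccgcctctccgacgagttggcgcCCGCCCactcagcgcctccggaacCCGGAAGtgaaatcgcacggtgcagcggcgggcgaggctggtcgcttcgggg
Mau2 and Sugp1: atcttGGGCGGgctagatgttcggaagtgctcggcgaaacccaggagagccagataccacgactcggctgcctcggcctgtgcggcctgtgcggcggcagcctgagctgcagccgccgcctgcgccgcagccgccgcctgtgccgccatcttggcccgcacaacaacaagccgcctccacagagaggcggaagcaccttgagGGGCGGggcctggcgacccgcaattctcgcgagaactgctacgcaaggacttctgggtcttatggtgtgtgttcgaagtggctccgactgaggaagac

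None of the 3 windows holds TATAAA. The window of Rfxank and 2310045N01Rik has 5 GC boxes, 1 CCAAT and a palindrome that matches the NRF1 core on both strands, with 54.3% G and C. Between the start of Rfxank in the table and this window lie 51 bases. The window of Haus8 and Myo9b has 3 GC boxes and 2 ETS cores, with 65.7% G and C, and the start of Haus8 is its base 127. The window of Mau2 and Sugp1 has 2 GC boxes and 65.7% G and C, and the start of Mau2 is its base 198. This window is placed on the RefSeq start of Sugp1 (70042787). The distance of 79 bases given above was taken from another start of Sugp1, that of the counts (70042813). RefSeq windows were found for 118 of the 142 genes, 143 windows in all. Of these, 58.0% hold a GC box, 20.3% an ETS core, 44.1% a CCAAT, 4.2% a TATAAA and 4.2% an NRF1 core, against 35.7%, 8.86%, 37.4%, 13.6% and 2.71% of all 32851 windows in the table. The median share of G and C was 60% in these windows and 52.7% in all windows. Between genes that passed and genes that did not it was alike, with 59.8% and 60%. The 142 genes were chosen by a minimum of counts, while all windows were taken without such a rule. The shares therefore compare unlike sets, and whether they are particular to this region was not tested. A match of letters is a description and does not show that a factor binds there.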

How the data were processed

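Hippocampal RNA of 7 mice labelled LPAR2-/- and 7 WT mice was sequenced by the authors, 1 library per mouse. After trimming (cutadapt 1.18) and alignment (STAR, mm10), the authors summed reads over the exons of each gene in featureCounts 1.6.3, on the reverse strand only and dropping reads of several genes or places. Labels and methods name different library kits, which leaves unsettled whether the libraries kept strand. These deposited counts were the main data. The authors also deposited a table of other, normalized values (counts scaled with DESeq2 1.22.2 and by gene length, 16510 entries, with lost decimal points that were restored by division). It was used as an alternative only.

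Calculations used R 4.3.3, edgeR 4.0.16, limma 3.58.1 and DESeq2 1.42.0. All genes that passed edgeR's filterByExpr (14897 of 24421) were fitted together, normalized by TMM, by quasi-likelihood F tests in edgeR with robust dispersions, 7 against 7 mice without covariates. P-values were adjusted by Benjamini-Hochberg over all of these genes, at a threshold of 0.05. Values per mouse are CPM after TMM. Standard errors are the log2 fold change divided by the square root of F. Distances run between gene midpoints and are negative before Lpar2. Marker lists were compared on untransformed CPM by an exact permutation test (two-sided, 3432 arrangements). Overlap of exons was taken from the exons of the count table, and shared words of 50 bases from GENCODE M21 transcripts. The tests were checked on simulated counts.

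The genes of the window and the role lists were chosen with earlier results of these data known. Named are all genes past the threshold, the 20 with the smallest p with their values by genotype, and the 5 nearest to Lpar2 on either side. A few genes of the set are counted but not reported here. Other genes named with values were chosen after their values were seen. The alternatives were DESeq2, other scalings and filters, limma on the authors' values, a replicate block, each mouse left out, a window of 65 to 75 Mb, a stricter count rule, a threshold of 0.01 and bins of 2 Mb. Between 15434620 and 23258949 reads per mouse limit the precision of low genes. No 2 libraries of a genotype were copies (the chi-square of the closest of 42 pairs was 3.41 times its degrees of freedom). The labels number the mice but do not say whether these share litters, so the p-values rest on the spread between mice of each colony.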

Additional observations from a re-analysis of the deposited data

Results flagged for a closer look

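In 7 of 90 groups of 7 mice (44 genes past the threshold or next to Lpar2, and Lpar2 itself), a single mouse lay far from the 6 others of its genotype, by a gap that took most of the range of the group. By chance about 1 in 20 groups is marked in this way. Slc5a5 was at 6.08 CPM (98 counts) in WT mouse 6, while the other WT mice had 12.5 to 15.8 CPM. The same mouse was lowest for Slc35e1, with 82.9 CPM against 86.4 to 88.6 CPM in the others. Ifi30 reached 5.15 CPM in WT mouse 1 against 2.96 to 3.71 CPM, and 1700030K09Rik reached 15.8 CPM in WT mouse 4 against 11.8 to 13.3 CPM. Among mice labelled LPAR2-/-, Zfp963 was at 16.1 CPM in mouse 7 against 11.8 to 13.1 CPM. Tmem59l was at 209 CPM in mouse 2 against 178 to 189 CPM. Il12rb1 was at 1.52 CPM (35 counts) in mouse 3 against 0.537 to 0.832 CPM. All 7 genes remained past the threshold in every fit with a mouse left out.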

How the results depend on the processing

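The count of 37 genes was 40 with DESeq2 (Ccdc124, Klf2 and Zfp709 in addition), 37 with DESeq2 size factors, 37 with upper quartile scaling (Ell in place of Myo9b), 35 without a filter, 34 of 132 with 10 counts in every library, 36 with limma on the authors' values with or without a pseudocount of 1, and 27 at a threshold of 0.01. In the window of 65 to 75 Mb it was 35 of 108. Upper quartile scaling moved the median of all genes to 0.023 and the share of higher genes among all calls from 49.0% to 62.0%, but in the set from 45.9% to 48.6%. With each mouse left out, 32 to 39 genes passed, 14 to 18 higher and 18 to 21 lower, and 24 to 27 did not overlap. Past the threshold in all 14 of these fits were 32 of the 37 genes. B3gnt3 was lost without mouse 1 labelled LPAR2-/-, WT mouse 4 or WT mouse 6 (highest adjusted p = 0.0574). Pik3r2 was lost in 6 fits (0.0662, without WT mouse 5), Babam1 in 9 (0.0781, without WT mouse 2), Csgalnact1 in 9 (0.073, without WT mouse 5) and Myo9b in 11 (0.106, without WT mouse 2). Past the threshold in every fit with a value were 29 genes, and none of the 37 changed sign.

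Whether the mouse numbers pair the mice is not settled (correlations −0.33 to 0.31, 3 of 7 above 0.1, and 3 of 7 mice most like their own number). With the replicate block 31 genes passed, 30 of them shared, without Babam1, Csgalnact1, Gtpbp3, Myo9b, Pik3r2, Sin3b and Zfp963, and with Klf2. The share of higher genes was 38.7%, and over all genes 586 passed in place of 1009. The sign of 2 genes near 0 turned. Tssk6 was at −0.00765 with DESeq2, −0.000218 with DESeq2 size factors, −0.00529 without a filter, −0.117 and −0.023 with limma on the authors' values, −0.03 with the replicate block and −0.171 to 0.113 with each mouse left out, below 0 in 7 of these fits. Gatad2a was at −0.00943 to 0.055 with each mouse left out, below 0 in 5. Among the 37 genes, the log2 fold change moved by over 1.5 times for 3 low ones, all with limma and a pseudocount of 1, to 0.23 for Il12rb1 (1.45 in edgeR), −0.33 for B3gnt3 (−1.11) and −0.385 for Gm10033 (−0.85), since a pseudocount shrinks low values; all 3 stayed past the threshold. The depth limits the low genes, such as Il12rb1 with 2 to 10 counts in WT mice.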
